A study of Mus musculus with 6 samples.

Results

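The genes described here are those of the NF-kappaB transcription factors, their inhibitors and the feedback genes around Tnfaip3, measured in the retina of mice that lack photoreceptor cadherin. They were chosen by name, as all probe sets whose single gene symbol in the platform annotation is Nfkb1, Nfkb2, Rel, Rela, Relb, Nfkbia, Nfkbie, Tnfaip3, Tnip1 or Bcl3. The choice was made with the difference between mutant and wild type in view, in particular the lower Tnfaip3 and the higher Bcl3. The differences of these genes are therefore given as a description, with no test. Of 10 genes listed, 9 had a probe set, and these carry 16 of the 45037 probe sets. Nfkb1 has no probe set named for it in the annotation used here.

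The arrays were single-colour Affymetrix arrays of total retinal RNA, 3 of prCAD -/- mice and 3 of wild type 129 mice, all about 4 weeks old. The submitters call the mutant a model of retinal degeneration. The retinas of 3 mice were pooled for each array, so the spread given is between pools. The labels used here name no strain for the mutant, so the genotype and a difference in strain cannot be told apart in any value below. The 3 arrays of a group carry the numbers 1 to 3, which both groups share.

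NF-kappaB is a family of transcription factors that form dimers from Rel proteins. In resting cells the dimers are held in the cytoplasm by inhibitors of the IkappaB type. Receptors for tumour necrosis factor, interleukin 1 and bacterial products activate a kinase complex that marks the inhibitor for destruction and lets the dimer enter the nucleus. Among the genes the dimers then induce are those of their own inhibitors and of Tnfaip3, also called A20, a ubiquitin-editing enzyme that shuts off the signal upstream. In the retina the pathway is active in glia, microglia and vessels during injury, and it is also present in neurons.

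The promoters of 8 of the 9 measured genes were in the RefSeq table used here (build GRCm38.p6), as 11 windows of the 250 bases before an annotated start. A match to the kappaB consensus on either strand stood in 8 of these 11 windows, of 6 genes, against 7.25% of all 32851 promoter windows of that length. Overlapping matches are counted as 1 stretch. The pattern TTCNNNGAA, the core that STAT factors bind, stood in a window of 2 genes, Nfkb2 and Tnip1, and in 7.02% of all windows. The 2 motifs did not overlap in the windows printed here. Both motifs were searched because the genes include known targets of these factors, and a match is a description of letters. The 4 sequences below are shown because they belong to the gene that was lower in mutant retina, its binding partner, the classical inhibitor and the gene that was higher. They lie at chr10:19015411-19015660 (Tnfaip3), chr11:54962941-54963190 (Tnip1), chr12:55492648-55492897 (Nfkbia) and chr7:19822756-19823005 (Bcl3), all on the minus strand and written 5′ to 3′. Capitals mark matches to the kappaB consensus, except the first capital stretch of Tnip1, which is the STAT pattern.
Tnfaip3: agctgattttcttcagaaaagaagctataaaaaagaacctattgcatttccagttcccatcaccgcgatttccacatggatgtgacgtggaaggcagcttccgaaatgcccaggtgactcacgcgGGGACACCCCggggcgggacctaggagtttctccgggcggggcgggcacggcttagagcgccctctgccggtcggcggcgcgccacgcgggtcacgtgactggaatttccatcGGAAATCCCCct
Tnip1: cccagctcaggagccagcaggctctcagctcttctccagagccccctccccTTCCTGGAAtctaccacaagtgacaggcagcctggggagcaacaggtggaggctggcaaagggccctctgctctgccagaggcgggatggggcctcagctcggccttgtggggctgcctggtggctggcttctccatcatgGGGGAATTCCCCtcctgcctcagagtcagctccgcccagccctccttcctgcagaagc
Nfkbia: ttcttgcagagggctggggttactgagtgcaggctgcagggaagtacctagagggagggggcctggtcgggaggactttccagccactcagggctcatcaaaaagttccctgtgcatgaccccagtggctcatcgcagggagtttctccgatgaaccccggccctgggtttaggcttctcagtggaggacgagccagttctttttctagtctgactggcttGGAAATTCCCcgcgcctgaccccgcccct
Bcl3: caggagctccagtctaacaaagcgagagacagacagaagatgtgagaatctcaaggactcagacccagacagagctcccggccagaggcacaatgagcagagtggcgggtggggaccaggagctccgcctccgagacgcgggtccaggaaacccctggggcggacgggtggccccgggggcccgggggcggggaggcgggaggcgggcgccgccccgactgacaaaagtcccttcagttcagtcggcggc
Tnfaip3 held 2 kappaB stretches, 1 of them between 12 and 3 bases before the start. Nfkbia held 1, between 29 and 20 bases before it, and Tnip1 held 1 stretch made of matches that overlap. In the Bcl3 window neither motif was found, which says only that these letters are not in these 250 bases. The other start of Tnfaip3 in the table held neither motif.

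Tnfaip3 read lower in every mutant array than in any wild type array, at both of its probe sets. The brighter probe set, 1433699_at, read 9.72, 9.62 and 9.70 in wild type replicates 1 to 3 and 9.20, 9.06 and 8.94 in mutant replicates 1 to 3, on the log2 scale. The wild type arrays lay close together and the mutant arrays lay below all of them. The group means were 9.68 ± 0.05 and 9.07 ± 0.13 (SD, n = 3 each), a difference of -0.61 (SE 0.10), or 1.53-fold lower. Within the pairs of same-numbered arrays the differences were -0.52, -0.56 and -0.76.

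The other Tnfaip3 probe set, 1450829_at, read 8.53, 8.15 and 8.35 in wild type and 7.91, 7.41 and 7.73 in mutant arrays. Again the groups did not overlap, and replicate 2 was the lowest array of each. The means were 8.34 ± 0.19 and 7.68 ± 0.26 (SD, n = 3 each), a difference of -0.66 (SE 0.16), or 1.58-fold lower. The pairs gave -0.62, -0.74 and -0.62. The 2 probe sets thus gave differences of nearly the same size, and both lay well above 4.76, the median of all values. Whether fewer cells held the transcript or each cell held less of it cannot be told apart in RNA of whole retina, here and for every gene below.

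Bcl3, an IkappaB-like protein that acts in the nucleus as a partner of the p50 and p52 subunits, differed the other way. Its 1 probe set read 4.12, 3.92 and 3.73 in wild type and 4.97, 4.75 and 4.92 in mutant arrays. Every mutant array lay above every wild type array. The means were 3.92 ± 0.19 and 4.88 ± 0.11 (SD, n = 3 each), a difference of 0.96 (SE 0.13), or 1.94-fold higher, with 0.85, 0.83 and 1.19 within the pairs. The wild type level lies below the median of all values, so background limits this difference. The difference was 0.86 without wild type replicate 3, the lowest array.

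**Figure D1:**
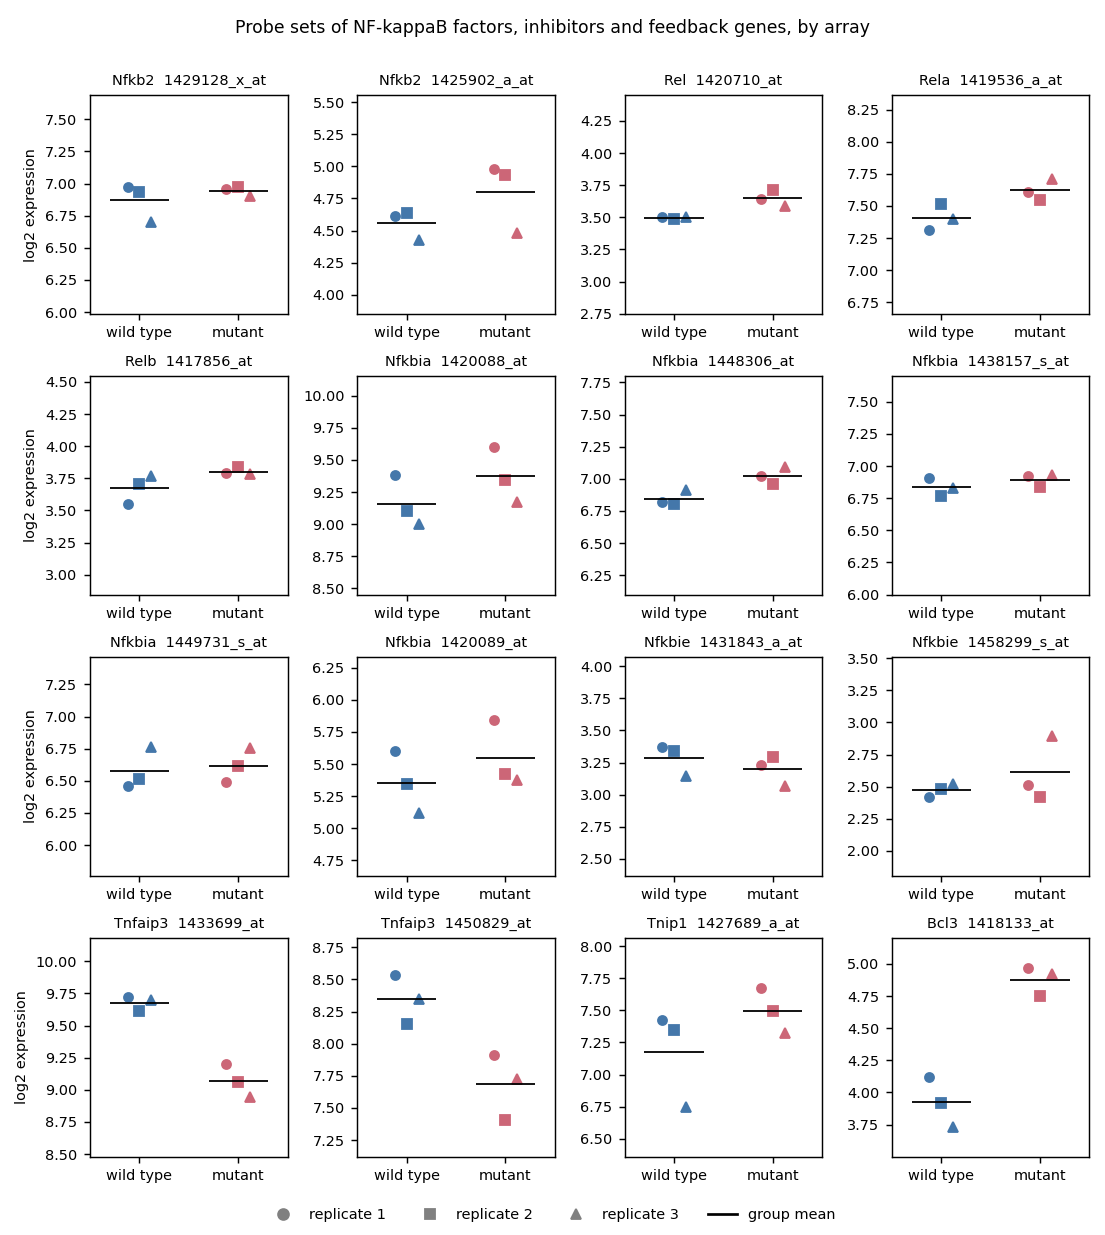
Log2 expression of the 16 probe sets (vertical axes, each spanning the same range) in 3 wild type and 3 mutant arrays, 1 point per array with the group mean as a line. Both Tnfaip3 probe sets are lower and Bcl3 is higher in all 3 mutant arrays, and the other 13 probe sets differ by 0.32 or less.

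Tnip1, a ubiquitin-binding protein that works together with the Tnfaip3 enzyme, did not follow Tnfaip3. Its probe set read 7.42, 7.35 and 6.75 in wild type and 7.67, 7.49 and 7.32 in mutant arrays. The groups overlapped, and wild type replicate 3 stood well below the other arrays. The difference was 0.32, with an SE of 0.19 by the fit on group and of 0.11 with the replicate number as a block. Without wild type replicate 3 the difference was 0.11. Both genes hold a kappaB match in the windows printed above, and whether these matches bear on either difference was not tested.

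Among the Rel proteins, all 5 probe sets read slightly higher in mutant retina. Rela, the p65 subunit of the classical dimer, read 7.31, 7.52 and 7.40 in wild type and 7.61, 7.55 and 7.71 in mutant arrays. The groups came close without overlapping, and the difference was 0.21 (SE 0.10), with 0.30, 0.03 and 0.31 within the pairs. Rel, the c-Rel subunit known from lymphocytes, read 3.50, 3.48 and 3.50 in wild type and 3.65, 3.71 and 3.59 in mutant arrays, a difference of 0.15 (SE 0.08).

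Relb, the subunit that pairs with p52 in the alternative pathway, read 3.55, 3.71 and 3.77 in wild type and 3.79, 3.83 and 3.78 in mutant arrays. The lowest mutant array was barely above the highest wild type array, and the difference was 0.13 (SE 0.09), or 0.06 without wild type replicate 1. Rel and Relb lie in the range of dim probe sets below 4.76, so these small differences are close to background.

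Nfkb2, the precursor of p52, has a pair of probe sets. The brighter one read 6.97, 6.94 and 6.70 in wild type and 6.96, 6.97 and 6.91 in mutant arrays, a difference of 0.07 (SE 0.10). The dimmer one read 4.61, 4.64 and 4.42 in wild type and 4.98, 4.93 and 4.49 in mutant arrays, a difference of 0.24 (SE 0.15), which was 0.15 without mutant replicate 1 and 0.40 without mutant replicate 3. At both probe sets the groups overlapped, and the replicate 3 array was the lowest of its group.

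Nfkbia, the IkappaB alpha protein that is degraded and remade in each round of activation, has 5 probe sets. The brightest, 1420088_at, read 9.38, 9.10 and 8.999 in wild type and 9.60, 9.34 and 9.17 in mutant arrays. The arrays of a group spread more than the groups differed, yet each mutant array lay above its same-numbered wild type array, by 0.22, 0.24 and 0.17. The difference was 0.21, with an SE of 0.15 by the fit on group and of 0.08 with the replicate number as a block. It was 0.09 without mutant replicate 1, 0.13 without wild type replicate 3 and 0.32 without wild type replicate 1.

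At 1448306_at Nfkbia read 6.82, 6.80 and 6.91 in wild type and 7.02, 6.96 and 7.09 in mutant arrays. Here the groups did not overlap, and the difference was 0.18 (SE 0.09), with 0.20, 0.16 and 0.18 within the pairs. The other 3 Nfkbia probe sets differed by 0.19 (SE 0.17), 0.06 (SE 0.09) and 0.04 (SE 0.12), and their groups overlapped. With the replicate block these SEs were 0.09, 0.08 and 0.08. The first of the 3 differences was 0.04 without mutant replicate 1 and 0.32 without wild type replicate 1. The last was -0.02 without wild type replicate 1 and -0.03 without mutant replicate 3. All 5 probe sets of this 1 gene read higher with all arrays in, where 53.6% of all probe sets did.

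Nfkbie, the IkappaB epsilon protein, was dim at both probe sets. One read 3.37, 3.34 and 3.14 in wild type and 3.23, 3.29 and 3.06 in mutant arrays, a difference of -0.09 (SE 0.11). The other read 2.42, 2.49 and 2.52 in wild type and 2.51, 2.42 and 2.90 in mutant arrays, a difference of 0.14 (SE 0.14), with mutant replicate 3 well above the other arrays. The 2 probe sets differed in sign and each by about its SE or less.

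**Figure D2:**
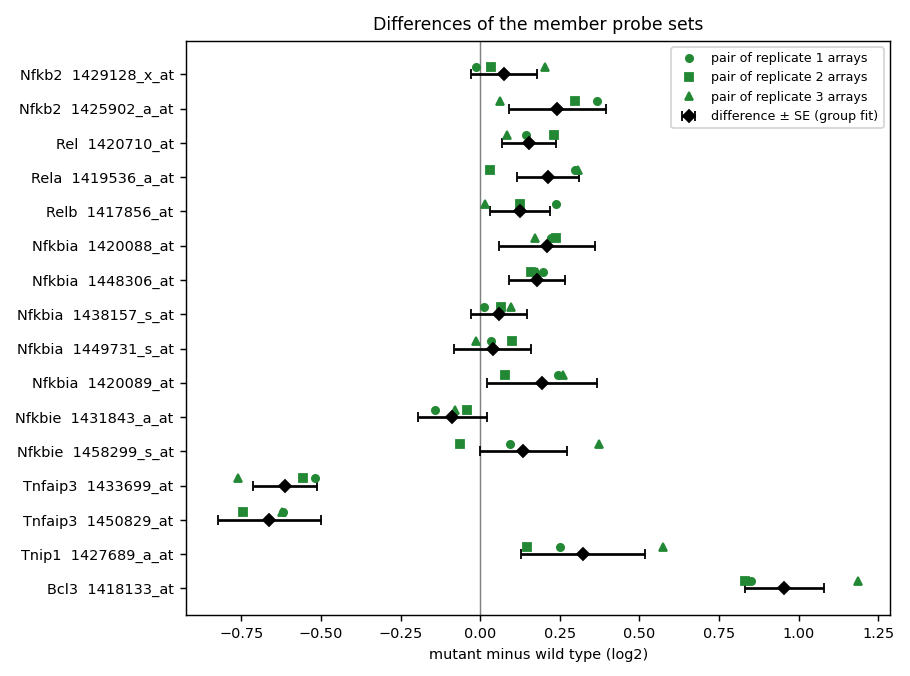
Mutant minus wild type difference (log2) of each of the 16 probe sets with its SE from the fit on group (black), and the differences of the 3 pairs of same-numbered arrays (green). Tnfaip3 lies at -0.61 and -0.66 and Bcl3 at 0.96, and the other 13 probe sets lie between -0.09 and 0.32.

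Counted over the group, 13 of the 16 probe sets read higher and 3 lower in mutant retina, where 53.6% of all probe sets read higher. In the limma fit over all 45037 probe sets 0 of the 16 passed at an adjusted p under 0.05, and 0.0111% of all did. With the replicate number as a block 0 of the 16 passed again, where 0.0333% of all did. Groups that did not overlap, with mutant higher, were found at 5 of the 16 (Bcl3, Rel, Rela, Relb and 1 of Nfkbia), and at 4.73% of all probe sets. With mutant lower they were found at 2, those of Tnfaip3, and at 3.07% of all. All 3 mutant arrays lay above their same-numbered wild type arrays at 10 of the 16, and at 17.0% of all probe sets. They lay below at 3, and at 13.1% of all. The 16 share genes and were chosen on this contrast, so nothing is read from these counts.

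**Figure D3:**
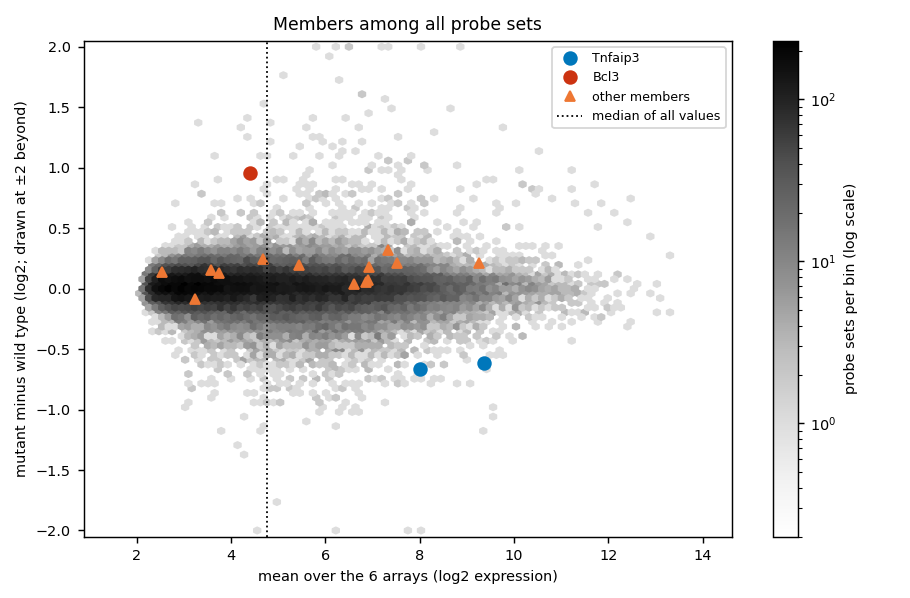
Difference between mutant and wild type (log2) against the mean over the 6 arrays (log2 expression) for all 45037 probe sets, with the number of probe sets per bin in grey on a log scale. Bcl3 and the 2 Tnfaip3 probe sets lie at the edge of the cloud, and the other 13 lie inside it.

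Genes next to Tnfaip3 and Bcl3 on their chromosomes were looked at because the strain of the mutant is not known. The 3 nearest genes with a probe set on each side of Tnfaip3, in GRCm38.p6 order, differed by -0.03 to 0.07, among them Perp (0.05, SE 0.11), Olig3 (-0.01, SE 0.17) and the interferon gamma receptor gene Ifngr1 (-0.03, SE 0.19). Beside Bcl3 the 6 neighbours differed by -0.06 to 0.12, with the largest at Pvr (0.12, SE 0.10). In all 12 the groups overlapped. Over all probe sets the groups did not overlap at 4.73% with mutant higher and at 3.07% with mutant lower. Beside Tnfaip3 only Ifngr1 (6.57 in wild type) read above 4.76, so background limits the other neighbours there. Beside Bcl3 it limits Gm19345 (3.38 in wild type). Whether the strains differ at these loci was not tested, and RNA levels of neighbouring genes cannot show it.

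The rest of the pathway was taken from 4 lists, with each gene at its brightest probe set. In no list did a gene pass the limma test over all probe sets, in either direction, where 0.0165% of the 18193 genes passed at their brightest probe sets. With the replicate block 0 passed in each list as well, where 0.0440% of all genes passed. At an unadjusted p under 0.05 there were 3.42% of all genes, and 7.44% with the block. Of all genes 58.4% read higher in mutant retina at their brightest probe sets, and their median difference was 0.02.

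Of 23 listed ligands and receptors 22 had a named probe set. Of these 13 read higher and 9 lower, with a median difference of 0.02, and 3 had an unadjusted p under 0.05, all 3 on the higher side. The share that read higher is close to that of all genes. With the replicate block 5 had an unadjusted p under 0.05, with Tnfrsf12a added on the higher side (0.27, SE 0.12) and Ltb on the lower side (-0.23). Tnfrsf1a, the main receptor of tumour necrosis factor, read 7.21, 7.31 and 6.71 in wild type and 7.51, 7.49 and 7.41 in mutant arrays, a difference of 0.39 (SE 0.16). Ltbr, the lymphotoxin beta receptor, read 5.74, 5.89 and 5.70 in wild type and 6.08, 6.18 and 5.90 in mutant arrays, a difference of 0.28 (SE 0.11). Tlr4, the receptor for bacterial lipopolysaccharide, read 3.79, 3.78 and 3.92 in wild type and 4.11, 4.12 and 4.30 in mutant arrays, a dim probe set with a difference of 0.35 (SE 0.10), and 0.24, 0.12 and -0.05 at its other probe sets. For all 3 receptors each mutant array lay above every wild type array, which follows in part from naming the smallest p. In the list 5 of 22 genes did so, Tnfrsf12a and the ligand gene Tnfsf11 (0.11) among them. Over all 18193 genes 1072 did. With mutant lower the groups did not overlap at 1 gene of the list, and at 524 of all. The groups overlapped for the cytokine genes Tnf (-0.03, SE 0.09) and Il1b (-0.05, SE 0.08), and these 2 were picked after their values were seen.

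Of 29 listed adaptors, kinases and ubiquitin ligases 23 had a named probe set. Among these 15 read higher and 8 lower, with a median difference of 0.06, and 2 had an unadjusted p under 0.05. Btrc, a subunit of the ligase that marks IkappaB for destruction, read 7.72, 7.69 and 7.29 in wild type and 8.23, 8.20 and 7.86 in mutant arrays, a difference of 0.53 (SE 0.16). Its 4 other probe sets differed by 0.40, 0.29, -0.06 and -0.45, so they disagree in sign. The probe set at -0.45 is dim, with a mean of 4.30 over the 6 arrays. Ikbkb is the kinase that phosphorylates IkappaB. The brightest of its probe sets gave a difference of 0.22 (SE 0.09), and the others gave 0.09, -0.08, -0.002 and -0.18, the last at a dim probe set. Fbxw11, a close relative of Btrc, differed by 0.15 (SE 0.09), and by 0.11, -0.36, 0.06 and 0.03 at its other probe sets. Those at 0.06 and 0.03 are dim.

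The 17 measured of 18 other inhibitors and regulators were spread to both sides, with 8 higher, 9 lower and a median difference of -0.01, and 1 had an unadjusted p under 0.05. It was Pdlim2, a ligase for nuclear p65, with a difference of 0.28 (SE 0.11). Its probe set is dim (3.44 in wild type), and its pair differences were 0.24, 0.06 and 0.54. Tnip2, a relative of Tnip1, differed by 0.25 (SE 0.13), with pair differences of 0.43, 0.35 and -0.03. Otud7b, a deubiquitinase of the same family as Tnfaip3, differed by 0.22 (SE 0.12), and by -0.05, -0.06 and 0.04 at its other probe sets.

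Of 32 listed target genes 30 had a named probe set, and 19 of these read higher and 11 lower, with a median difference of 0.06, and 3 had an unadjusted p under 0.05. Gadd45b, a stress-induced gene that restrains cell death, read 5.78, 5.83 and 5.62 in wild type and 6.34, 6.33 and 6.25 in mutant arrays. Its groups did not overlap, and the difference was 0.56 (SE 0.10, limma adjusted p = 0.538), with 0.83 (SE 0.20) and 0.05 (SE 0.17) at its other probe sets. Cflar, an inhibitor of caspase 8, differed by 0.39 (SE 0.11), but by -0.13 to 0.13 at its 4 other probe sets. Csf1, the growth factor of macrophages, differed by 0.24 (SE 0.09), and by 0.11, 0.01 and 0.07 at its other probe sets, the last of them dim. With the replicate block 4 target genes had an unadjusted p under 0.05, the added one being Lcn2 (0.75, SE 0.38), whose groups overlapped. Over the whole list the differences ran from -0.11 (Cxcl1) to 0.75 (Lcn2). The groups did not overlap at 7 of the 30 with mutant higher and at 1 with mutant lower. These counts were 4 and 1 of the 23 adaptors, kinases and ligases, and 2 and 0 of the 17 other inhibitors. Over all 18193 genes they were 1072 and 524.

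**Figure D4:**
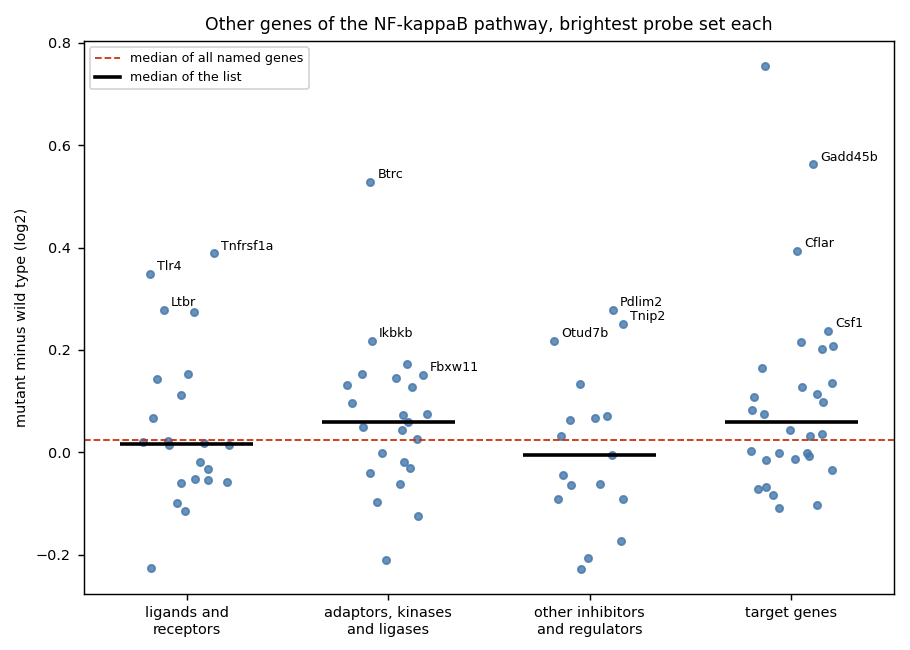
Mutant minus wild type difference (log2) of each gene of 4 pathway lists at its brightest probe set, with the list median (black bar) and the median of all 18193 genes (dashed). The list medians lie between -0.01 and 0.06. Named points are the 3 genes of each list with the smallest p, and the highest, unnamed point is Lcn2 at 0.75, whose wild type arrays ranged from 3.16 to 4.86.

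The genes whose pattern over the 6 arrays was most like that of Tnfaip3 and of Bcl3 were found by the root mean square distance between values centred on each probe set's own mean. Nearest to Tnfaip3 were Fam107a (distance 0.07), Fam3c (0.07) and A930004D18Rik (0.08). Fam3c read 10.03, 10.01 and 10.21 in wild type and 9.60, 9.59 and 9.39 in mutant arrays, a difference of -0.55 (SE 0.11). Nearest to Bcl3 were Sec22c, a protein of vesicle transport (distance 0.06), Cp, which encodes the ferroxidase ceruloplasmin (0.08), and Sulf1, a sulfatase that acts on heparan sulfate (0.08). Cp read 7.74, 7.74 and 7.48 in wild type and 8.70, 8.62 and 8.61 in mutant arrays, a difference of 0.99 (SE 0.10). Since both targets were chosen for a difference between the groups, genes that differ between the groups are near them by construction.

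**Figure D5:**
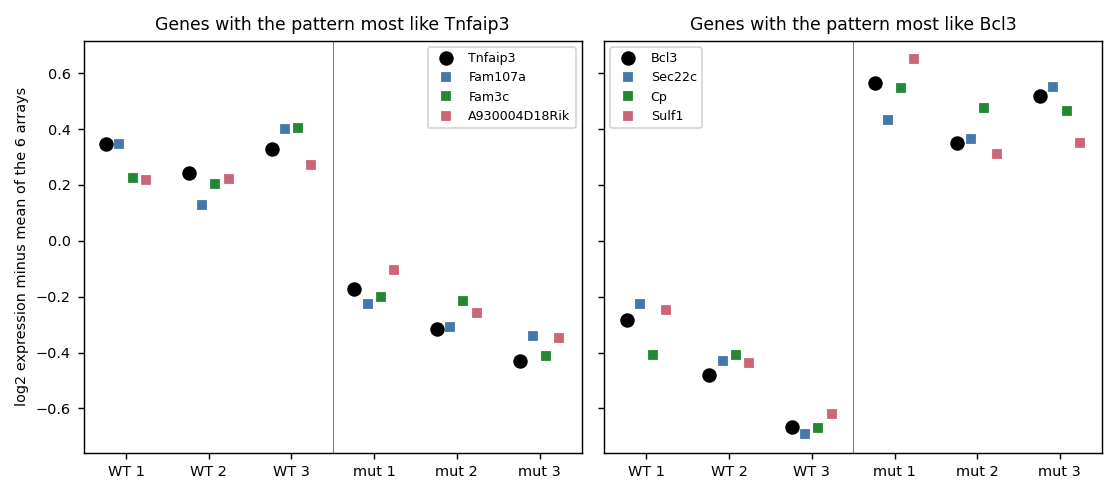
Log2 expression minus the mean of the 6 arrays, for Tnfaip3 (left) and Bcl3 (right) in black and the 3 genes with the most similar values in colour, 1 point per array. For Tnfaip3 and its 3 genes every wild type point is above 0 and every mutant point below it, and for Bcl3 and its 3 genes the reverse holds.

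The Cdhr1 probe set, which measures the targeted gene, read 11.22 ± 0.21 in wild type and 4.16 ± 0.20 in mutant arrays (SD, n = 3 each), matching the labels. Markers of cells that could carry these genes are given as how many read higher, beside the 58.4% of all genes that did, and as their mean level per array. Of 11 microglia markers 10 read higher in mutant retina, and the level of the 11 ran from 4.71 to 4.81 in wild type and from 4.83 to 4.97 in mutant arrays. Of these 11, 5 lay below the overall median. C1qa (0.55) and Csf1r (0.35) differed most, and Aif1 (0.04), Fcrls (0.03) and P2ry12 (-0.01) least. Of 9 markers of Müller cells and astrocytes 6 read higher (8.40 to 8.87 against 8.93 to 9.08). Gfap (1.60) and Vim (0.63) differed most among these, while Glul (-0.08), Dkk3 (-0.08) and Rlbp1 (-0.07) read lower. Of 8 vascular markers 5 read higher (5.16 to 5.39 against 5.19 to 5.44), and 4 of the 8 lay below the overall median. Of 6 leukocyte and blood markers 3 read higher, 5 of these 6 being below that median, Ptprc among them. All 8 pigment epithelium markers (5.04 to 5.88 against 6.36 to 6.69) and all 6 lens markers (9.13 to 10.80 against 10.01 to 11.02) read higher, and 5 of 6 rod markers read lower (11.88 to 12.13 against 11.87 to 12.04). The lens and pigment epithelium levels were lowest in wild type replicate 3. The median lens difference within pairs 1 to 3 was 0.01, 0.13 and 1.61, so it lay mostly in pair 3. For the pigment epithelium it was 0.47, 0.73 and 1.14. The groups did not overlap, with mutant higher, at 0 of 6 lens markers and 6 of 8 pigment epithelium markers, and at 1072 of all 18193 genes. The part of these markers in the differences of Tnfaip3, Bcl3 and the other genes was not tested.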

How the data were processed

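The values are log2 expression values that the authors made with RMA, per the submitters' processing notes, with no version stated. This method subtracts background, gives all arrays 1 distribution and combines probes into probe sets, so levels of different probe sets are not compared. The deposited table holds 45101 probe sets, of which 64 manufacturer controls were left out. The platform annotation names 34945 of the other 45037 with 1 symbol, 932 with several and 9160 with none. Array medians lay between 4.74 and 4.79. For the pathway and marker lists a gene stands at its brightest probe set, and 18193 genes had one. The labels used here name no genome build.

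Groups followed the sample titles. The test was limma 3.58.1 (R 4.3.3; lmFit and eBayes) on group alone, Benjamini-Hochberg adjusted over all 45037 probe sets, threshold 0.05, and SEs are from this fit unless stated. Nothing says what a replicate number marks. Across probe sets, same-numbered arrays deviated together from the means of their groups, with correlations of 0.477, 0.469 and 0.563. Other pairs of a wild type and a mutant array gave -0.452 to 0.175, so the numbers were taken to pair the arrays. The fit on group leaves this pairing out. With the number as a block the SE was smaller at every member probe set. It was 0.08 against 0.16 at Tnfaip3 1450829_at, and 0.09 against 0.15 at the dimmer Nfkb2 probe set. The members and lists were chosen with earlier results of these data known. Named are all members, Cdhr1, the 3 genes per pathway list with the smallest p, and the 3 genes most like Tnfaip3 and Bcl3, with exceptions marked. The choice of neighbouring genes and of promoter motifs was made after the values were seen. Alternatives tried were the replicate block, a filter on dim probe sets, array weights, eBayes with a trend and robust, centring on the median, a further quantile normalization, the mean over a gene's probe sets, and leaving out each array. The fit was tested on simulated data with unpaired noise and planted differences larger than that of any member. This test does not cover differences of the members' size. Figures were drawn with matplotlib 3.10.9.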

Additional observations from a re-analysis of the deposited data

How the results depend on the processing

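The differences of the 16 member probe sets were recomputed under 10 alternatives each. The replicate block leaves a difference the same by construction. Tnfaip3 ran from -0.68 to -0.55 at 1433699_at and from -0.79 to -0.52 at 1450829_at, and Bcl3 from 0.83 to 1.05. Small differences changed sign at 3 probe sets, with lowest values of -0.01 (Nfkb2 1429128_x_at), -0.03 (Nfkbia 1449731_s_at) and -0.01 (Nfkbie 1458299_s_at). Between 11 and 13 of the 16 read higher when single arrays were left out. In none of these alternatives did a member probe set pass, nor did a gene of the 4 pathway lists at its brightest probe set.

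Over all probe sets 5 passed, 15 did with the replicate block, 25 did with array weights, and between 2 and 9 did when single arrays were left out (9 without mutant replicate 3). With the replicate block 8 genes passed at their brightest probe sets against 3 without it, and no call of a member or a pathway gene changed at the adjusted threshold. The median difference of the target genes was 0.0834 without dim probe sets and 0.0872 with array weights, against 0.0595. When single arrays were left out it ran from 0.0166 to 0.0877, that of the adaptors and kinases from -0.000428 to 0.131, the lowest without mutant replicate 1, and that of the other inhibitors from -0.0290 to 0.0714, and that of the ligands and receptors from 0.00436 to 0.0662 against 0.0166. The number of arrays limits every value, and background limits those of Bcl3, Rel, Relb, Nfkbie and the dimmer Nfkb2 probe set. It also limits those of other dim probe sets, such as Tlr4 and Pdlim2. The cause of these shifts was not tested.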
